A study of Homo sapiens with 24 samples.

Results

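The 10 genes described here make, coat and mobilise the triglyceride store of the cell: HILPDA, PLIN2, PLIN3, PNPLA2, ABHD5, G0S2, AGPAT2, LPIN1, DGAT1 and DGAT2. They were chosen by symbol from textbook roles in lipid droplets and triglyceride metabolism, with earlier results of these data known. All 10 were among the 18239 genes measured. Where a gene had several probe sets (groups of short probes for 1 transcript), the probe set with the highest mean signal over all arrays stood for it.

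The study measured RNA of HCT116, an established human colon cancer line, on 24 Affymetrix 3′ expression arrays, 3 in each of 8 groups. Parental HCT116 cells were compared with ESR2 cells, which are HCT116 cells infected with a lentivirus that carries full-length ESR2, the gene of estrogen receptor beta, behind an N-terminal HaloTag. The question was whether this receptor alters the response of colorectal cancer cells to hypoxia. The 4 parental groups were normoxia, hypoxia, normoxia with 10 nM 17β-estradiol and hypoxia with 10 nM 17β-estradiol, and the 4 ESR2 groups had the same conditions. The ESR2 cells are a puromycin-selected pool in which more than 80% of cells were positive for GFP, so they are not a clone. For hypoxia, a mix of nitrogen and CO2 was flushed through the incubator. For the length of hypoxia, for a line with the empty vector and for the medium of the groups without estradiol, nothing is given in the sources used here. The cells given estradiol were in phenol-red-free DMEM and charcoal-stripped serum, and if the groups without estradiol were kept in ordinary growth medium, estradiol and medium cannot be told apart. Nothing says that the 3 arrays of a group came from separate cultures, and the p-values then rest on the spread of these arrays alone, which may be technical. In RNA of whole cultures, fewer cells with a transcript and less of it per cell cannot be told apart.

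Triglyceride is built from glycerol phosphate by adding fatty acids in turn. AGPAT2 makes phosphatidic acid, LPIN1 removes its phosphate to give diacylglycerol, and DGAT1 and DGAT2 add the last fatty acid. The product is stored in lipid droplets, whose surface carries perilipins such as PLIN2 and PLIN3. PNPLA2 (adipose triglyceride lipase) starts the breakdown of the stored fat, ABHD5 activates it, and HILPDA and G0S2 bind and inhibit it. HILPDA is a known target of the hypoxia-inducible factors, and droplets are known to accumulate in many cancer cells kept at low oxygen.

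The upstream sequences of the 2 perilipins are shown because hypoxia was called for PLIN2 and not for PLIN3, a gene of the same family, in ESR2 cells. The difference between the genes was not tested. RefSeq promoter windows on GRCh38.p14 matched 7 of the 10 genes by symbol (HILPDA, DGAT1 and DGAT2 had no entry). Each line gives the 250 bases before the start of the gene, 5′ to 3′ on the strand of the gene, at chr9:19127493-19127742 (minus strand) for PLIN2 and at chr19:4867668-4867917 (minus strand) for PLIN3. Capitals mark a match on either strand to the core of the element that hypoxia-inducible factors bind. The core was searched for in the form ACGTG, which reads CACGT on the other strand, and separately in the form with another first base, GCGTG, which reads CACGC there.
PLIN2: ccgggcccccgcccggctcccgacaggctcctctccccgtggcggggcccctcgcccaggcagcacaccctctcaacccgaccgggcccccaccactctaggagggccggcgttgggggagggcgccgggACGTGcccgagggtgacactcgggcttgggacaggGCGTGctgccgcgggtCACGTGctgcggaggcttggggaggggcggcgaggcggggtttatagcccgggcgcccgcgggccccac
PLIN3: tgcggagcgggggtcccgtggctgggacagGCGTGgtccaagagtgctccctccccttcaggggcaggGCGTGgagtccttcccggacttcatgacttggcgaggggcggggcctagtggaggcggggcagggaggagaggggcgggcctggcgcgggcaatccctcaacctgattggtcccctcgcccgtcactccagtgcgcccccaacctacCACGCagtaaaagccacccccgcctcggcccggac
PLIN2 had 3 matches to ACGTG, of which 2 overlap on opposite strands as CACGTG, and 1 match to GCGTG. The CACGTG spans bases 69 to 64 before the start, and the other ACGTG bases 120 to 116. PLIN3 had 0 matches to ACGTG and 3 to GCGTG. Over 34943 promoter windows in the table, 18.5% held ACGTG and 32.2% held GCGTG. Of the 7 genes with a window, 1 held the form ACGTG (PLIN2) and 6 held GCGTG in at least 1 of their windows, all but PNPLA2. ABHD5 and LPIN1 have 3 windows each, so these counts by gene cannot be set directly beside the shares by window. A match is a run of letters and not a binding site, and binding was not measured here.

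Values are RMA log2 signals, so that a difference of 1 is 2-fold, and signals of different genes are not on a common scale. As a check of the labels, ESR2 averaged 3.43 to 3.48 in the 4 parental groups, 4.51 ± 0.44 (SD, n = 3) and 4.41 ± 0.066 in normoxic ESR2 cells without and with estradiol, and 4.07 ± 0.11 and 3.93 ± 0.015 in hypoxic ESR2 cells. Every ESR2 array lay above every parental array. VEGFA, a hypoxia target, rose with hypoxia by 1.84 in parental cells (8.70 ± 0.14 to 10.54 ± 0.056; SE 0.09, adjusted p = 7.56e-14) and by 1.16 in ESR2 cells (8.43 ± 0.12 to 9.60 ± 0.10; SE 0.09, adjusted p = 8.46e-10). With estradiol it rose by 1.88 in parental and by 0.53 in ESR2 cells, and its interactions were -0.68 (adjusted p = 0.000215) and -1.35 (adjusted p = 8.89e-09). ANGPTL4, another such target, rose by 3.53 in parental and 2.39 in ESR2 cells, with an interaction of -1.13 (adjusted p = 1.19e-05). EPCAM, CDH1, KRT8, KRT18 and CDX2 lay above the array median of 4.07 to 4.13 on all 24 arrays, while the differentiation markers VIL1, LGALS4 and CEACAM5 lay below it on all 24. Of 7 adipocyte markers, PLIN1, CIDEC, FABP4 and LIPE lay below the array median on all 24 arrays, and LEP and CFD above it on all 24. Arrays of hypoxic ESR2 cells with estradiol stood apart by an index of the length of labelled RNA, the signal of 3′ minus that of 5′ control probe sets. It is high where labelled RNA is short. It averages beta-actin, a gene of the cells, with dap and thr, control sequences of Bacillus and not of the cells. The index was 3.74 ± 0.30 (log2) in that group, where dap gave 3.44 to 3.75 and thr 3.54 to 4.28. Whether the RNA of the cells themselves was shorter was not tested. The index was 4.34 on replicate 2 of parental normoxia and 2.00 to 3.10 on the other 20 arrays. Hypoxic ESR2 cells with estradiol could not be compared without these arrays. The main differences of that group are therefore given below also from a fit with the index as a covariate. The slope of that fit comes from arrays within groups, largely from replicate 2 of parental normoxia, so it is no test of RNA length.

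Hypoxia raised HILPDA in both kinds of cell, but by less in ESR2 cells, while PLIN2 rose with hypoxia in ESR2 cells and was not called in parental cells. ABHD5 fell with hypoxia in parental cells and, without estradiol, also in ESR2 cells. LPIN1 rose with hypoxia in parental cells. In ESR2 cells with estradiol, hypoxia also raised DGAT1 and DGAT2. In normoxia, the ESR2 cells had less PLIN2 and PLIN3 RNA than parental cells by the brightest probe sets. The second PLIN2 probe set gave -0.05 for this difference without estradiol and -0.33 with it. By their brightest probe sets, estradiol raised PLIN2, ABHD5 and DGAT1 in hypoxic ESR2 cells, where 57% of all genes were called. For estradiol the second PLIN2 probe set gave -0.16 there. The second DGAT1 probe set gave 0.09 for estradiol and -0.08 for hypoxia in ESR2 cells with estradiol. All arrays of hypoxic ESR2 cells with estradiol had a high index, and estradiol and medium may be confounded. A difference was called where the limma p, adjusted by Benjamini-Hochberg over all genes, was under 0.05.

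HILPDA had the widest range of group means among the 10 genes, 2.80 log2 units. Without estradiol its signals in parental cells were 7.22, 7.55 and 7.35 in normoxia and 10.12, 10.10 and 10.13 in hypoxia. The ESR2 cells gave 7.43, 7.25 and 7.49 in normoxia and 8.59, 8.40 and 8.49 in hypoxia. The normoxic groups overlapped, every hypoxic array lay above them, and every hypoxic ESR2 array lay below every hypoxic parental array. Hypoxia raised HILPDA 6.69-fold in parental cells (log2 difference 2.74, SE 0.084, adjusted p = 3.62e-17) and 2.15-fold in ESR2 cells (1.10, adjusted p = 6.88e-10). The hypoxia differences differed by -1.64 between ESR2 and parental cells (SE 0.12, 95% interval -1.89 to -1.39, adjusted p = 4.9e-10). In hypoxia the ESR2 cells had 3.08-fold less HILPDA than parental cells (adjusted p = 5.01e-13), and in normoxia the groups differed by 0.02 (95% interval -0.16 to 0.19).

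With estradiol the HILPDA signals in parental cells were 7.38, 7.36 and 7.29 in normoxia and 9.82, 9.98 and 9.93 in hypoxia. ESR2 cells read 7.33, 7.37 and 7.24 in normoxia and 8.78, 8.60 and 8.52 in hypoxia. The hypoxic groups again did not overlap. Hypoxia raised HILPDA 5.92-fold in parental (adjusted p = 1.17e-16) and 2.49-fold in ESR2 cells (adjusted p = 5.42e-12), and the interaction was -1.25 (SE 0.12, adjusted p = 1.06e-08). With the 3′ minus 5′ index as a covariate the hypoxia difference in ESR2 cells was 1.19 (adjusted p = 7.59e-10), the interaction -1.38 (adjusted p = 7.02e-09) and the difference from hypoxic parental cells -1.42 (adjusted p = 9.12e-11). The second HILPDA probe set gave hypoxia differences of 2.60 and 1.02 without estradiol and 2.64 and 1.01 with it, in parental and ESR2 cells.

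PLIN2 coats the surface of droplets and is degraded when not bound to lipid. In parental cells its signals without estradiol were 7.77, 7.84 and 7.83 in normoxia and 7.78, 7.77 and 7.76 in hypoxia. The ESR2 arrays gave 7.51, 7.35 and 7.44 in normoxia and 8.04, 7.99 and 8.06 in hypoxia. The parental groups overlapped, and the ESR2 arrays lay below them in normoxia and above them in hypoxia. PLIN2 differed by -0.05 with hypoxia in parental cells (SE 0.055, 95% interval -0.16 to 0.07, adjusted p = 0.596) and rose 1.51-fold in ESR2 cells (0.59, adjusted p = 1.43e-08). The interaction was 0.64 (SE 0.078, adjusted p = 9.7e-07). ESR2 cells had 1.30-fold less PLIN2 than parental cells in normoxia (adjusted p = 3.26e-05) and 1.20-fold more in hypoxia (adjusted p = 0.000531).

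With estradiol the PLIN2 signals in parental cells were 7.88, 7.79 and 7.83 in normoxia and 7.73, 7.76 and 7.78 in hypoxia. Those of ESR2 cells were 7.48, 7.41 and 7.48 in normoxia and 8.64, 8.67 and 8.57 in hypoxia. The hypoxic ESR2 arrays with estradiol were the highest of all 24. Hypoxia raised PLIN2 2.25-fold there (1.17, adjusted p = 3.15e-14), against a parental difference of -0.08 (95% interval -0.19 to 0.04, adjusted p = 0.335), and the interaction was 1.25 (adjusted p = 1.28e-11). Estradiol raised PLIN2 1.51-fold in hypoxic ESR2 cells (0.60, adjusted p = 4.32e-09). With the index as a covariate the hypoxia difference of PLIN2 in ESR2 cells was 1.14 (adjusted p = 6.47e-12), the interaction 1.21 (adjusted p = 2.82e-10) and the estradiol difference 0.55 (adjusted p = 2.02e-05). The 2 PLIN2 probe sets differed on this point: the second one gave -0.16 for estradiol in hypoxic ESR2 cells, and the mean of both gave 0.22 (adjusted p = 0.00581). For hypoxia in ESR2 cells the second probe set gave 0.93 without and 0.89 with estradiol, and its difference between ESR2 and parental cells was -0.05 in normoxia and 0.83 in hypoxia without estradiol. With the mean of both probe sets the last 2 differences were -0.21 and 0.54.

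**Figure D1:**
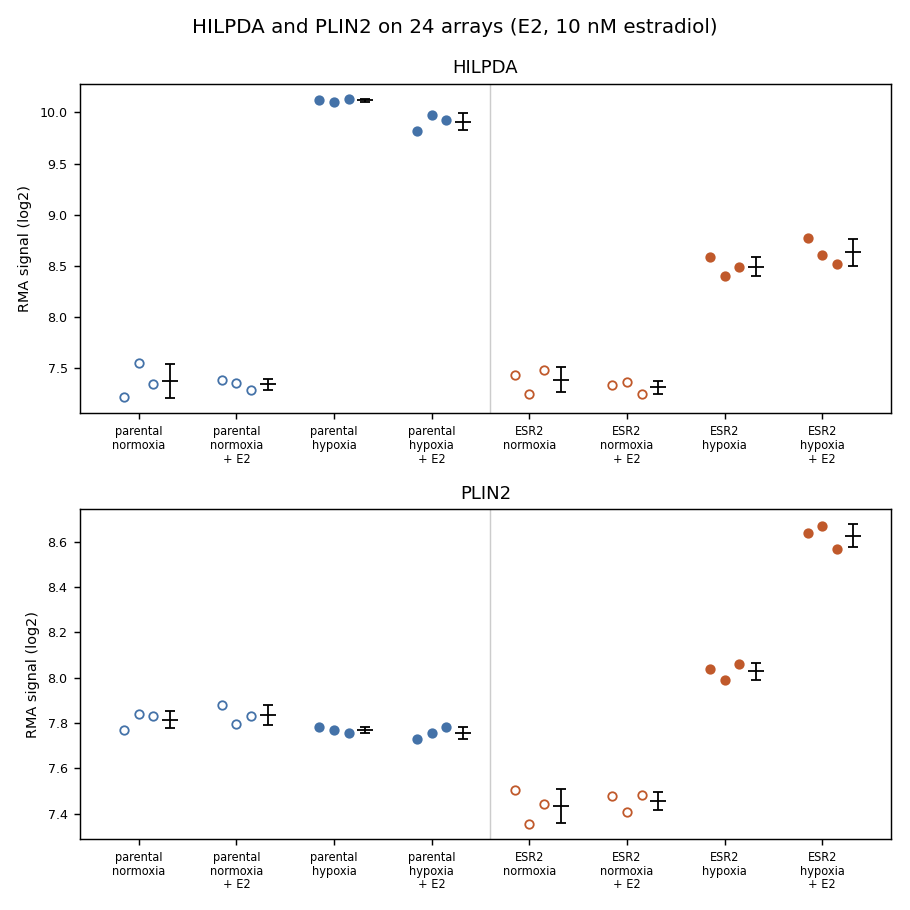
RMA log2 signal of HILPDA (top) and PLIN2 (bottom) on each of the 24 arrays, by group; blue points are parental and orange points ESR2 cells, open points normoxia and filled points hypoxia, and bars give the mean and SD of the 3 arrays. HILPDA was near 10 in hypoxic parental cells and between 8.40 and 8.78 in hypoxic ESR2 cells, while PLIN2 reached 8.57 to 8.67 in hypoxic ESR2 cells with estradiol.

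PLIN3 is a perilipin of the cytosol that moves onto newly formed droplets, and it had a single probe set. Its signals without estradiol were 9.12, 9.41 and 9.17 in normoxic and 9.38, 9.29 and 9.34 in hypoxic parental cells. The ESR2 arrays read 8.74, 8.78 and 8.86 in normoxia and 8.91, 8.93 and 8.84 in hypoxia. Every ESR2 array lay below every parental array. PLIN3 was 1.36-fold lower in ESR2 cells in normoxia (-0.44, SE 0.071, adjusted p = 0.000104) and 1.36-fold lower in hypoxia (-0.44, adjusted p = 2.3e-05). With estradiol the ESR2 cells were lower by 1.17-fold in normoxia (adjusted p = 0.0341) and by 1.33-fold in hypoxia (-0.41, adjusted p = 3.82e-05; -0.52 with the index as a covariate, adjusted p = 3.36e-05). The normoxic call with estradiol was lost when any 1 parental array of that comparison or ESR2 replicate 3 was left out (adjusted p up to 0.206). Hypoxia raised PLIN3 in parental cells with estradiol (0.23, adjusted p = 0.0135; 0.0653 without hypoxic replicate 1) and was not called for it in the other 3 settings, where the differences were 0.05 to 0.10.

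In normoxia without estradiol, PLIN2 and PLIN3 were the members called between ESR2 and parental cells, 0 of 10 higher and 2 lower, while 9.76% of all genes were called higher and 8.86% lower (18.6% in either direction). With estradiol 0 were higher and 3 lower (PLIN2, PLIN3 and DGAT2), against 8.45% and 5.22% of all genes (13.7% in either direction). The median difference of the 10 genes was -0.18 without and -0.05 with estradiol, beside -0.01 over all genes in both cases.

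ABHD5, the protein that activates PNPLA2, fell with hypoxia in both kinds of cell without estradiol and in parental cells with it. Without estradiol its signals in parental cells were 6.06, 6.19 and 6.18 in normoxia and 5.37, 5.17 and 5.43 in hypoxia. In ESR2 cells they were 5.90, 6.07 and 5.94 in normoxia and 5.57, 5.70 and 5.59 in hypoxia. The hypoxic arrays lay below the normoxic ones in both, and the hypoxic parental arrays lay lowest. ABHD5 fell 1.76-fold in parental cells (-0.82, SE 0.074, adjusted p = 2.96e-09) and 1.27-fold in ESR2 cells (-0.35, adjusted p = 0.000686), with an interaction of 0.47 (SE 0.10, adjusted p = 0.0013).

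With estradiol the ABHD5 signals were 6.01, 6.09 and 6.11 in normoxic and 5.50, 5.35 and 5.43 in hypoxic parental cells. In ESR2 cells they were 6.05, 5.94 and 5.90 in normoxia and 6.01, 5.87 and 5.95 in hypoxia, so that these groups overlapped. The fall was 1.56-fold in parental cells (adjusted p = 1.56e-07), while in ESR2 cells the difference was -0.02 (95% interval -0.17 to 0.13, adjusted p = 0.851). The interaction was 0.62 (adjusted p = 3.57e-05). In hypoxia ABHD5 was higher in ESR2 than in parental cells by 0.30 without estradiol (adjusted p = 0.00237) and by 0.52 with it (adjusted p = 2.67e-06). The fit with the index as a covariate gave 0.66 for the interaction with estradiol (adjusted p = 0.000118) and 0.55 for the last difference (adjusted p = 6.43e-05). A renewed quantile normalization of the arrays ended the first of these calls (0.17, adjusted p = 0.099).

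ABHD5 had 6 probe sets, and their differences varied in size. For hypoxia in parental cells without estradiol they ranged from -1.12 to -0.02, all 6 below 0 and 5 of them called. For hypoxia in ESR2 cells with estradiol they ranged from -0.02 to 1.00, with 5 of 6 called higher. The mean of the 6 gave 0.46 there (adjusted p = 1.03e-06), where the brightest probe set was not called. For ESR2 against parental cells in hypoxia the mean gave 0.49 without and 1.22 with estradiol, and for the interaction with estradiol 1.05.

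PNPLA2 itself lay near the array median, with group means from 4.13 to 4.62, so its differences rest on a dim signal. The parental values without estradiol were 4.15, 4.83 and 4.18 in normoxia and 4.18, 4.23 and 4.25 in hypoxia. In ESR2 cells with estradiol they were 4.09, 4.17 and 4.22 in normoxia and 4.41, 4.91 and 4.55 in hypoxia. The high values, 4.83 and 4.91, were on 2 of the arrays with a high 3′ minus 5′ index. PNPLA2 was called higher with hypoxia in ESR2 cells with estradiol (0.46, SE 0.13, adjusted p = 0.005) and higher in these cells than in parental ones (0.34, adjusted p = 0.0334). With the index as a covariate the differences were 0.07 (adjusted p = 0.582) and -0.10 (adjusted p = 0.485). Without estradiol the hypoxia difference in ESR2 cells was 0.14 (adjusted p = 0.438), and the covariate fit called it at 0.37 (adjusted p = 0.00106). Leaving out replicate 2 of hypoxic ESR2 cells with estradiol put the first 2 differences at 0.32 (adjusted p = 0.0509) and 0.20 (adjusted p = 0.229). Leaving out any 1 of the 3 parental arrays also ended the second call. PNPLA2 had 3 probe sets, and the dimmer ones gave 0.13 and 0.09 for the first difference and 0.11 and 0.05 for the second. Between ESR2 and parental cells in hypoxia without estradiol, 1 of them gave -0.27 and was called lower, where the brightest gave 0.13.

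G0S2, the other inhibitor of PNPLA2, lay below the array median on every array, with group means from 3.11 to 3.38. Its 3 values in hypoxic ESR2 cells were 3.04, 3.17 and 3.13 without estradiol and 3.45, 3.29 and 3.35 with it. That difference was called (0.25, SE 0.092, adjusted p = 0.0252). It was not called after renewed quantile normalization (0.08), with the mean of the 4 probe sets (0.07), with the index as a covariate (0.06), or without replicate 1 of either group (0.21 each). No other comparison called G0S2.

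**Figure D2:**
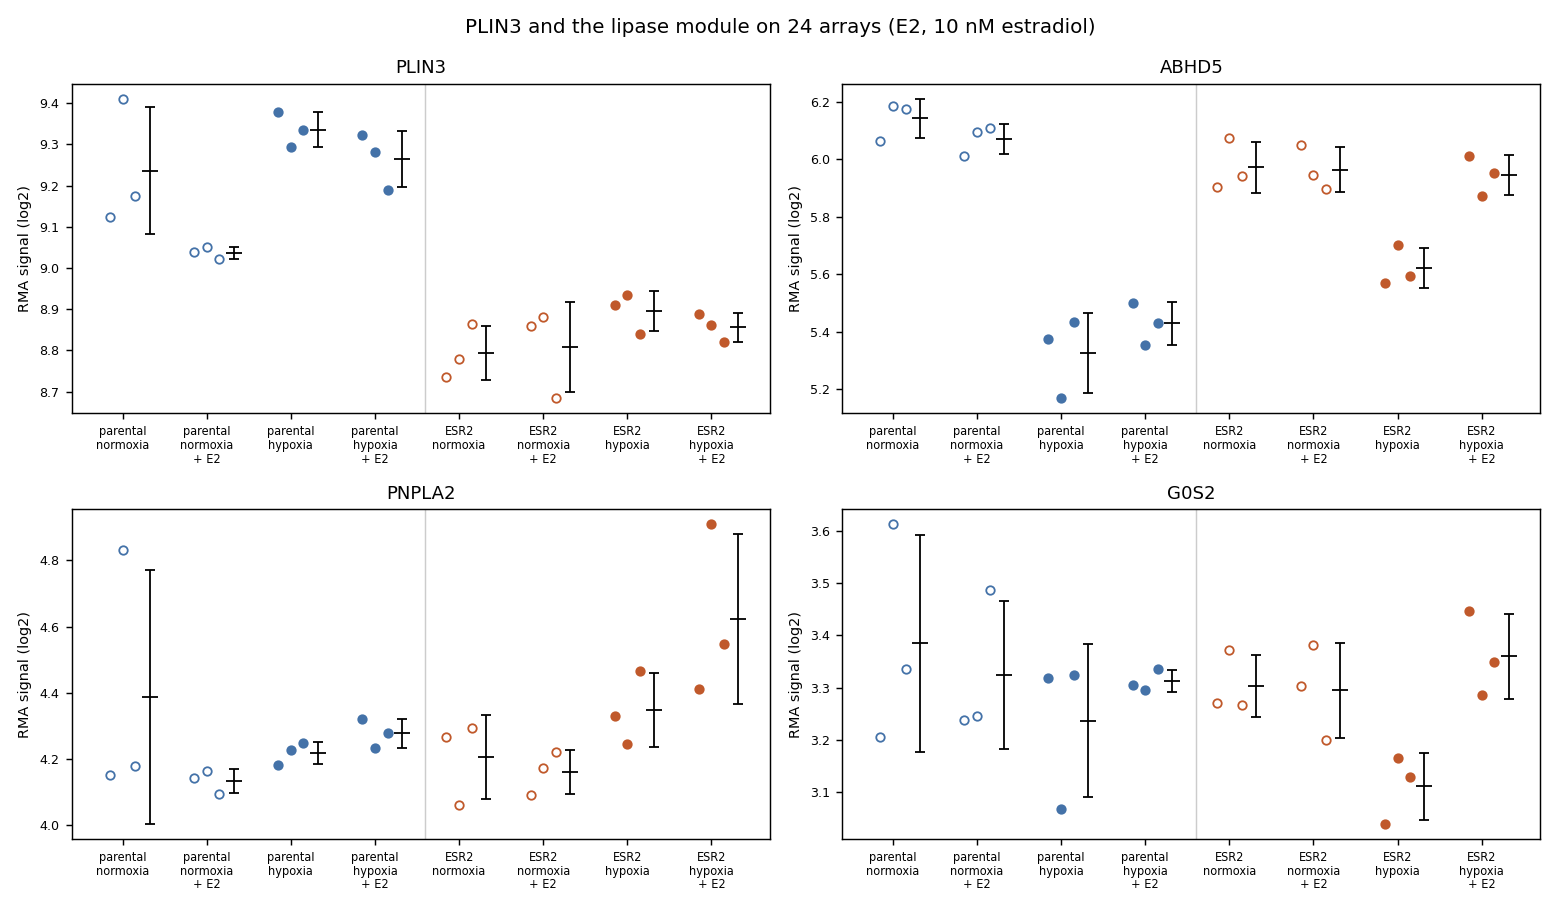
RMA log2 signal of PLIN3, ABHD5, PNPLA2 and G0S2 on each of the 24 arrays, by group, each panel with its own scale; bars give the mean and SD of 3 arrays. PLIN3 was lower on ESR2 than on parental arrays, ABHD5 was lowest in hypoxic parental cells (5.17 to 5.50), and the PNPLA2 bars of parental normoxia and of hypoxic ESR2 cells with estradiol are long because of single arrays at 4.83 and 4.91.

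By its brightest probe set AGPAT2, which makes phosphatidic acid, moved in opposite directions in the 2 kinds of cell. Its signals without estradiol were 7.47, 7.41 and 7.56 in normoxic and 7.42, 7.24 and 7.22 in hypoxic parental cells. In ESR2 cells they were 7.26, 7.35 and 7.45 in normoxia and 7.57, 7.55 and 7.73 in hypoxia. The parental groups overlapped and the ESR2 groups did not. Hypoxia changed AGPAT2 by -0.19 in parental cells (SE 0.071, adjusted p = 0.0429), a call that 10 of 17 alternative settings ended, and by 0.27 in ESR2 cells (adjusted p = 0.00533). With estradiol the signals were 7.42, 7.54 and 7.44 in normoxic and 7.20, 7.23 and 7.14 in hypoxic parental cells, and 7.40, 7.41 and 7.35 in normoxic and 7.63, 7.67 and 7.77 in hypoxic ESR2 cells. Neither pair of groups overlapped. The parental difference was -0.27 (adjusted p = 0.00325) and the ESR2 difference 0.30 (adjusted p = 0.00103). The interaction was 0.45 without (SE 0.10, adjusted p = 0.00121) and 0.58 with estradiol (adjusted p = 5.86e-05), and the second probe set gave 0.44 and 0.50. For hypoxia itself the second probe set gave -0.03 and -0.15 in parental and 0.41 and 0.35 in ESR2 cells, without and with estradiol. In hypoxia AGPAT2 was higher in ESR2 than in parental cells by 0.32 (adjusted p = 0.000732; 0.21 after renewed quantile normalization) and with estradiol by 0.50 (adjusted p = 2.6e-06). With the index as a covariate the 3 differences that rest on hypoxic ESR2 cells with estradiol were 0.35 for hypoxia (adjusted p = 0.00267), 0.62 for the interaction (adjusted p = 0.000121) and 0.55 against parental cells (adjusted p = 3.69e-05).

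LPIN1, the phosphatase that makes diacylglycerol, showed the reverse order. Its signals without estradiol were 7.39, 7.35 and 7.36 in normoxic and 7.69, 7.77 and 7.71 in hypoxic parental cells. In ESR2 cells they were 7.33, 7.23 and 7.21 in normoxia and 7.33, 7.19 and 6.88 in hypoxia. The hypoxic parental arrays lay above all others and the ESR2 groups overlapped. LPIN1 rose 1.28-fold with hypoxia in parental cells (0.36, SE 0.094, adjusted p = 0.00333) and differed by -0.12 in ESR2 cells (95% interval -0.32 to 0.07, adjusted p = 0.339). The interaction was -0.48 (SE 0.13, adjusted p = 0.00734). With estradiol the signals were 7.25, 7.26 and 7.35 in normoxic and 7.65, 7.72 and 7.71 in hypoxic parental cells, and 7.02, 7.33 and 7.42 in normoxic and 7.15, 7.0 and 7.01 in hypoxic ESR2 cells. The parental groups did not overlap and the ESR2 groups did. The differences were 0.41 (adjusted p = 0.00118) and -0.20 (adjusted p = 0.0736), with an interaction of -0.61 (adjusted p = 0.00071). In hypoxia LPIN1 was 1.51-fold lower in ESR2 than in parental cells without estradiol (adjusted p = 1.93e-05) and 1.56-fold lower with it (-0.64, adjusted p = 3.94e-06). The covariate fit put that difference at -0.67 (adjusted p = 0.000121) and the interaction with estradiol at -0.64 (adjusted p = 0.00199). Of its 3 probe sets, the dimmest gave -0.07 and 0.03 for the interactions, and the mean of all 3 gave 0.23 for the parental rise with estradiol and -0.41 for that interaction. The second brightest gave -0.47 and -0.64 for the interactions without and with estradiol. For estradiol in hypoxic ESR2 cells that probe set gave -0.38 and was called lower, where the brightest gave -0.08.

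DGAT1, which adds the last fatty acid, was high in 1 group. Its signals in hypoxic ESR2 cells with estradiol were 7.45, 7.55 and 7.58, and in the same cells without estradiol 6.0, 6.08 and 6.0. The normoxic ESR2 arrays read 5.90, 6.05 and 6.10 without and 6.01, 6.01 and 6.08 with estradiol. Every array of the hypoxic group with estradiol lay above all other 21 arrays. Hypoxia raised DGAT1 2.82-fold in ESR2 cells with estradiol (1.49, SE 0.15, adjusted p = 1.98e-08), and without estradiol the difference was 0.01 (95% interval -0.31 to 0.33). With the 3′ minus 5′ index as a covariate the rise was 1.08 (adjusted p = 4.85e-07). The second DGAT1 probe set was dim, with group means of 3.32 to 3.49 and a hypoxia difference of -0.08 in ESR2 cells with estradiol, and the mean of both gave 0.71 (adjusted p = 6.81e-08).

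In parental cells the DGAT1 signals were 6.04, 6.84 and 5.74 in normoxia and 5.69, 5.64 and 5.56 in hypoxia, and with estradiol 5.80, 5.96 and 5.99 in normoxia and 5.66, 5.55 and 5.64 in hypoxia. The hypoxic arrays lay below the normoxic ones in both cases. Replicate 2 of parental normoxia, the array with the highest index, was far above its group. The difference with hypoxia was -0.58 without estradiol (SE 0.15, adjusted p = 0.00377) and -0.30 with it (adjusted p = 0.15). Without that array the first was -0.26 (adjusted p = 0.0152), and with the index as a covariate -0.25 (adjusted p = 0.131). Array weights (-0.18, adjusted p = 0.0792) and a spread taken from the 2 groups alone (adjusted p = 0.122) also ended the call. The interaction with ESR2 was 0.59 without estradiol (adjusted p = 0.0449), called in 9 of 23 alternative settings and 0.27 (adjusted p = 0.0747) without replicate 2 of parental normoxia. With estradiol the interaction was 1.80 (SE 0.22, adjusted p = 4.48e-07; 0.86 with the mean of both probe sets; 1.38 with the index as a covariate, adjusted p = 7.85e-07). In hypoxia DGAT1 was higher in ESR2 than in parental cells by 0.40 without estradiol (adjusted p = 0.0437), which was lost when any 1 of the 6 arrays was left out, after renewed quantile normalization (0.23) and with the mean of both probe sets (0.19), and by 1.91 with it (adjusted p = 2.61e-10; 1.00 with the mean of both probe sets; 1.45 with the index as a covariate, adjusted p = 1.07e-08).

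DGAT2, an enzyme of the same reaction but of another protein family, varied less. Its signals with estradiol were 5.31, 5.18 and 5.11 in normoxic and 5.04, 5.07 and 5.26 in hypoxic parental cells. In ESR2 cells they were 4.79, 4.97 and 4.91 in normoxia and 5.39, 5.27 and 5.55 in hypoxia. The parental groups overlapped, and the ESR2 groups did not. Hypoxia raised DGAT2 1.43-fold in ESR2 cells with estradiol (0.52, SE 0.10, adjusted p = 0.000216; 0.34 with the index as a covariate, adjusted p = 0.0218), with an interaction of 0.59 (SE 0.15, adjusted p = 0.00243; 0.41 with the covariate, adjusted p = 0.0353). Without estradiol the hypoxia differences were -0.10 in parental and 0.12 in ESR2 cells (95% intervals -0.31 to 0.12 and -0.10 to 0.33), and neither was called. With estradiol DGAT2 was lower in ESR2 than in parental cells in normoxia (-0.31, adjusted p = 0.0475) and higher in hypoxia (0.28, adjusted p = 0.0306). The first call was lost when any 1 of its 6 arrays was left out and in 3 other settings. The second was 0.08 (adjusted p = 0.663) with the index as a covariate, and it was lost without parental replicate 1 (0.24) or 2 (0.25) or ESR2 replicate 1 (0.29) or 3 (0.20).

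**Figure D3:**
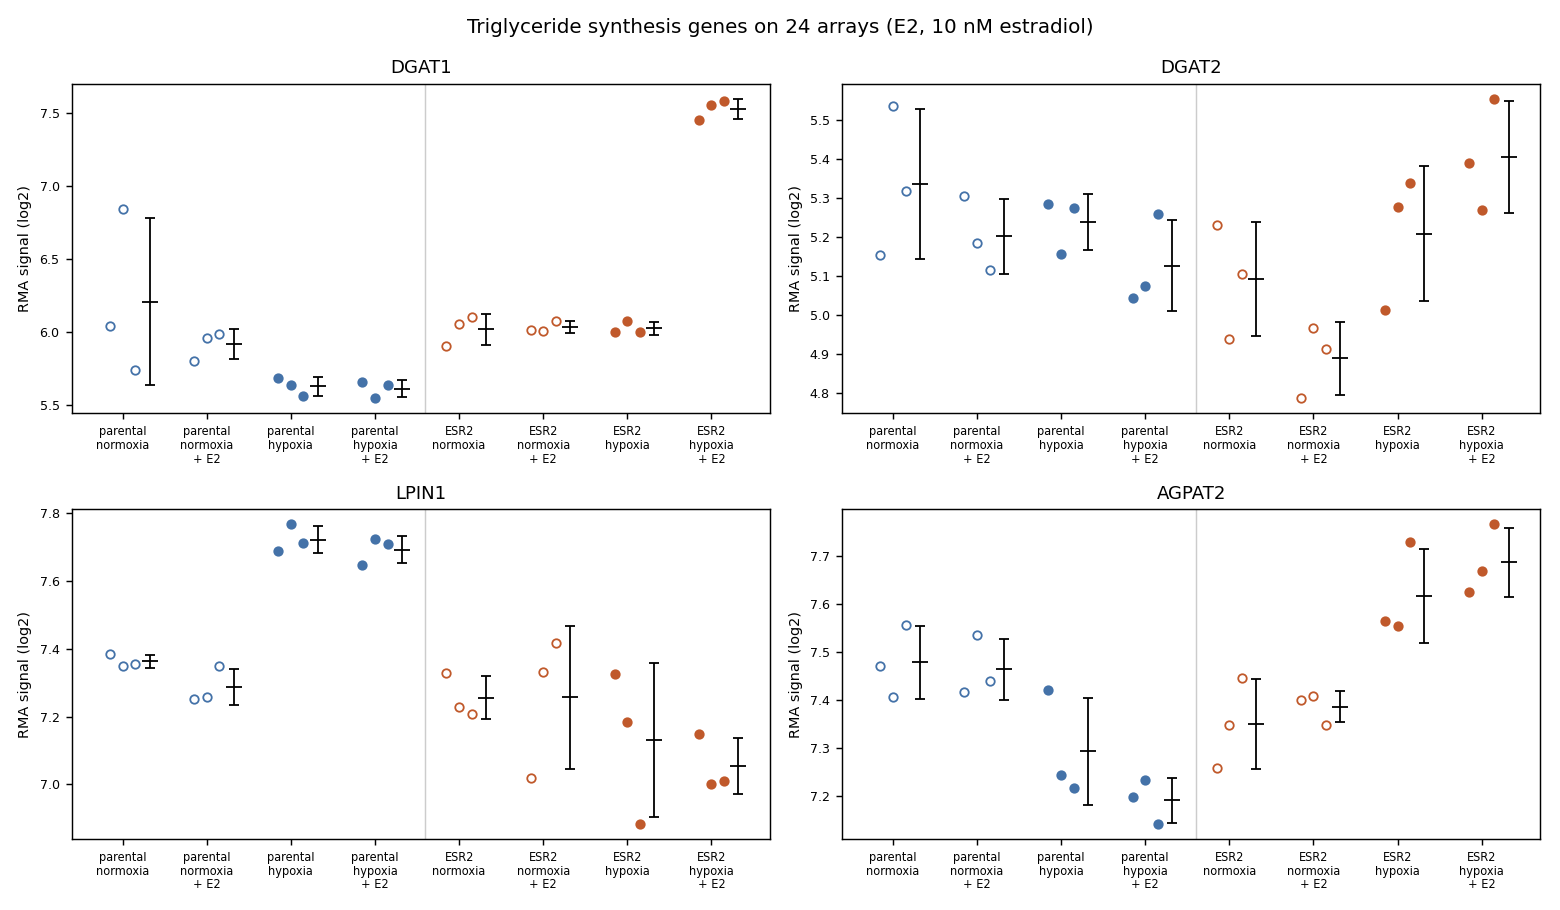
RMA log2 signal of the triglyceride synthesis genes DGAT1, DGAT2, LPIN1 and AGPAT2 on each of the 24 arrays, by group, each panel with its own scale; bars give the mean and SD of 3 arrays. DGAT1 was at 7.45 to 7.58 in hypoxic ESR2 cells with estradiol and at 6.84 or less elsewhere, LPIN1 was highest in hypoxic parental cells, and AGPAT2 was highest in hypoxic ESR2 cells.

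Counted over the 10 genes, hypoxia without estradiol called 2 higher (HILPDA, LPIN1) and 3 lower (ABHD5, DGAT1, AGPAT2) in parental cells, beside 16.4% and 21.2% of all genes (37.5% in either direction). In ESR2 cells it called 3 higher (HILPDA, PLIN2, AGPAT2) and 1 lower (ABHD5), beside 14.4% and 18.2% (32.6%). The interaction called 4 higher and 2 lower, beside 16.4% and 14.3% (30.7%). With estradiol the counts were 3 higher and 2 lower in parental cells (16.1% and 18.7% of all genes, 34.8% in either direction). They were 6 higher and 0 lower in ESR2 cells (29.6% and 22.6%, 52.3%), and 5 higher and 2 lower for the interaction (20.6% and 18.1%, 38.6%). Between ESR2 and parental cells in hypoxia, 4 members were higher and 3 lower without estradiol (20.4% and 20% of all genes, 40.4% in either direction), and 6 higher and 3 lower with it (27.8% and 19.8%, 47.7%). The median differences of the 10 genes were -0.12 in parental and 0.11 in ESR2 cells for hypoxia without estradiol, beside 0.00 and -0.06 over all genes. In the comparisons that do not use hypoxic ESR2 cells with estradiol, leaving out the 4 arrays with a high index ended the call of the DGAT1 interaction (0.27, adjusted p = 0.0751). It added calls with hypoxia in parental cells for PLIN3 without estradiol (0.19, adjusted p = 0.0348) and for DGAT1 with it (-0.30, adjusted p = 0.00234). Counts over 10 genes beside such backgrounds describe these genes and do not set them apart.

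**Figure D4:**
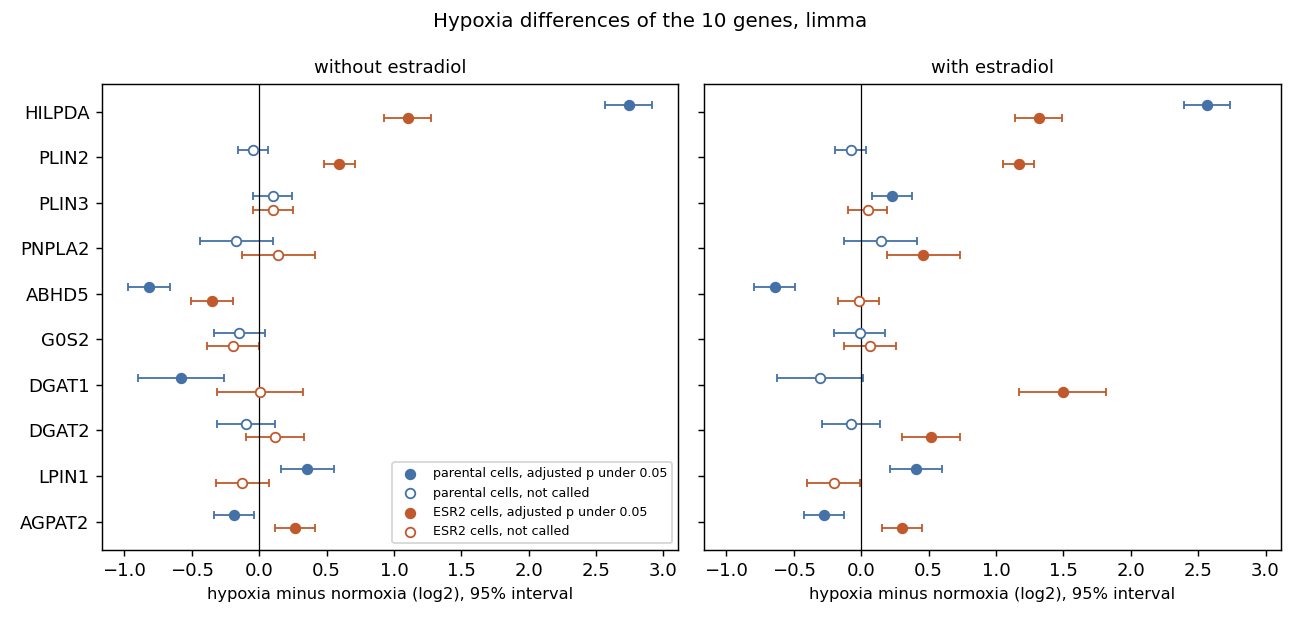
Hypoxia minus normoxia (log2) of the 10 genes from the limma fit, with 95% intervals, in parental (blue) and ESR2 (orange) cells, without estradiol (left) and with it (right); filled points have an adjusted p under 0.05. HILPDA stands at 2.74 and 2.57 in parental and at 1.10 and 1.32 in ESR2 cells, PLIN2 lies near 0 in parental and at 0.59 and 1.17 in ESR2 cells, and DGAT1 stands at 1.49 in ESR2 cells with estradiol.

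Estradiol at 10 nM was called for 0 of the 10 genes in normoxic parental, hypoxic parental and normoxic ESR2 cells, where limma called 0.011%, 0.0164% and 0% of all genes. At an unadjusted p under 0.05 there was 1 member in the first (PLIN3, -0.20), 1 in the second (HILPDA, -0.21) and 0 in the third. The test of whether hypoxia altered the estradiol difference in parental cells called 0 members and had 0 at an unadjusted p under 0.05 (0.00548% of all genes). In hypoxic ESR2 cells estradiol was called higher for 4 members, PLIN2, ABHD5, DGAT1 and G0S2, and lower for 0, while 35.4% of all genes were called higher and 21.6% lower (57% in either direction). DGAT1 rose 2.83-fold (1.5, SE 0.15, adjusted p = 2.4e-08; 0.86 with the index as a covariate, adjusted p = 0.000214; 0.80 with the mean of its probe sets). ABHD5 rose 1.25-fold (0.32, adjusted p = 0.000813; 0.51 after renewed quantile normalization and 0.81 as the mean over its 6 probe sets; 0.37 with the index as a covariate, adjusted p = 0.014). HILPDA differed by 0.14 there (95% interval -0.03 to 0.32, adjusted p = 0.152).

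The estradiol difference in ESR2 cells was larger in hypoxia than in normoxia for 4 members and smaller for 0, beside 25.4% and 18.4% of all genes (43.8% in either direction). It was larger by 1.49 for DGAT1 (SE 0.22, adjusted p = 9.71e-06) and by 0.57 for PLIN2 (SE 0.078, adjusted p = 3.42e-06). For ABHD5 it was larger by 0.33 (adjusted p = 0.0139) and for DGAT2 by 0.40 (adjusted p = 0.0321). With the index as a covariate DGAT1 stood at 0.84 (adjusted p = 0.00217), PLIN2 at 0.53 (adjusted p = 0.00037), ABHD5 at 0.38 (adjusted p = 0.0381) and DGAT2 at 0.12 (adjusted p = 0.627). The DGAT2 call was also lost with arrays centred on their medians (0.36) or without normoxic replicate 1 (0.33) or 3 (0.39), hypoxic replicate 1 (0.30), normoxic estradiol replicate 1 (0.35) or hypoxic estradiol replicate 3 (0.32). Averaging the probe sets put PLIN2 at 0.27, DGAT1 at 0.70 and ABHD5 at 0.75, and ABHD5 stood at 0.54 after renewed quantile normalization.

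The group of hypoxic ESR2 cells with estradiol, on which these differences rest, consisted entirely of arrays with a high 3′ minus 5′ index (3.42 to 4.01). Over all 24 arrays the signals of DGAT1 and PNPLA2 rose with the index (Pearson r 0.79 and 0.77, a description, since the arrays share groups and conditions). Over the 20 arrays without the 4 high ones the r was 0.04 and -0.15. For HILPDA it was -0.16 over 24 arrays and -0.35 over 20, and for PLIN2 0.46 and -0.58. The slope of the covariate fit comes from differences between arrays of the same group. The SD of the index was 0.99 in parental normoxia, because of replicate 2, and 0.017 to 0.41 in the other groups. That fit thus rests largely on 1 array, and calls kept or lost with it do not test RNA length. The part of RNA length in the values of the group of hypoxic ESR2 cells with estradiol was not tested. The mean of 6 leukocyte markers was 4.0 to 4.08 on its arrays and 3.47 to 3.70 on the other 21. Of these markers CD68 was above the array median on all 24 arrays, with a highest value of 7.40, and PTPRC, the defining one, was below it on all 24 (2.49 to 2.88). The mean of 10 colon markers was 6.17 to 6.5 on the hypoxic and 5.82 to 6.04 on the normoxic arrays. The part of these markers in the members' differences was not tested.

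**Figure D5:**
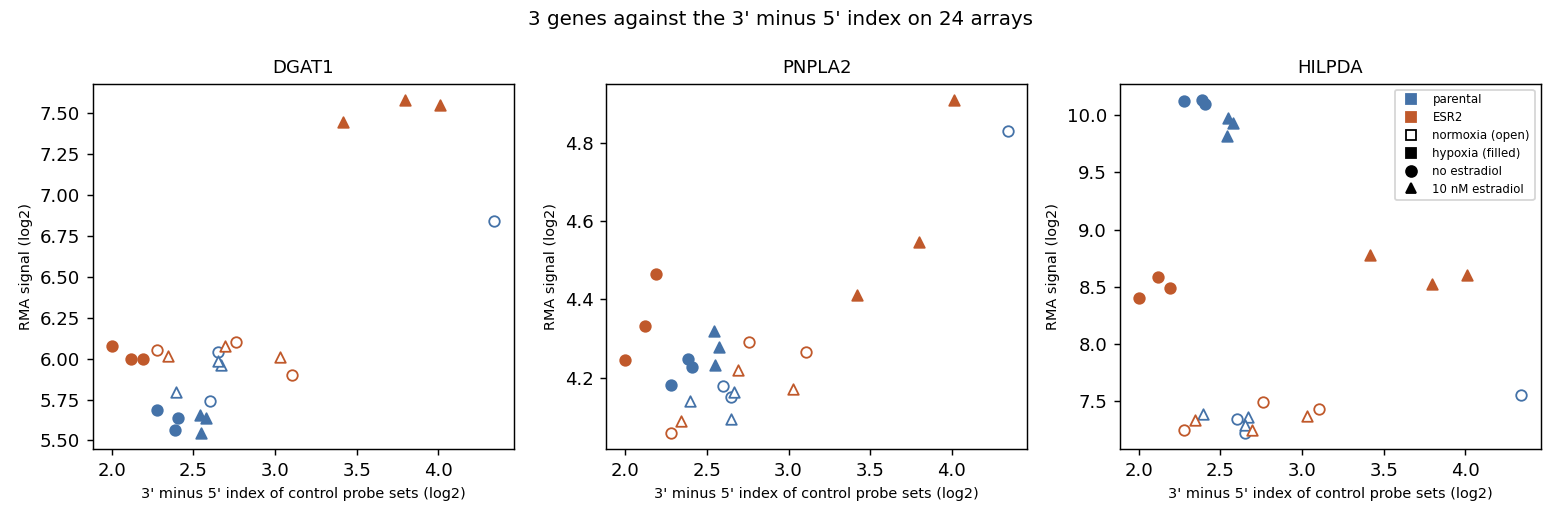
RMA log2 signal of DGAT1, PNPLA2 and HILPDA on each of the 24 arrays against the 3′ minus 5′ index of the control probe sets (log2); colour gives the cell, open or filled points the oxygen and circles or triangles the estradiol. The 4 arrays with an index of 3.42 or more had the highest DGAT1 signals.

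The order of the 8 groups differed between the members. For HILPDA it ran from hypoxic parental (10.12), hypoxic parental with estradiol (9.91), hypoxic ESR2 with estradiol (8.63) and hypoxic ESR2 cells (8.49) to the 4 normoxic groups (7.32 to 7.39). The hypoxic ESR2 groups overlapped each other, and so did neighbours among the normoxic groups. For PLIN2 it ran from hypoxic ESR2 cells with estradiol (8.62) and without (8.03) through the 4 parental groups (7.76 to 7.84, neighbours overlapping) to the normoxic ESR2 groups (7.46 and 7.43, overlapping). For ABHD5 the hypoxic parental groups were lowest (5.43 and 5.32, overlapping), then hypoxic ESR2 cells without estradiol (5.62), and the other 5 groups overlapped their neighbours from 5.94 to 6.14. The likeness of genes to HILPDA was measured as Pearson r over the 8 group means among 3846 genes whose means spanned at least 1 log2 unit. The genes most like HILPDA were RRAGD (0.994), PLAUR (0.993), NIPA1 (0.993), SRPX (0.990) and WWTR1 (0.989). Those most like PLIN2 were SLC7A6OS (0.993), TUBA4A (0.990), TREX1 (0.983), TOX4 (0.970) and LMO4 (0.969). These r values rest on 8 points that share the same arrays and describe a pattern only.

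Other genes of droplets, triglyceride and fatty acids came from 5 lists with 82 genes, of which 76 were measured. Hypoxia without estradiol called 13 of them higher and 15 lower in parental cells and 15 higher and 12 lower in ESR2 cells, 36.8% and 35.5% in either direction, beside 37.5% and 32.6% of all genes. Among 17 genes of glycerolipid synthesis in parental cells, 2 rose and 5 fell. GPAM, the mitochondrial enzyme of the first acylation step, fell by 1.08 (SE 0.10, adjusted p = 5.71e-09), and GPAT3, its relative in the endoplasmic reticulum, fell by 0.85 (SE 0.07, adjusted p = 1.04e-09). AGPAT4, a relative of AGPAT2, rose by 1.05 (SE 0.12, adjusted p = 1.04e-07). In ESR2 cells 4 of the 17 rose and 3 fell. GPAT4 rose by 0.85 (SE 0.14, adjusted p = 3.53e-05), GPAT2 by 0.78 (SE 0.09, adjusted p = 4.25e-07), and GPAM fell by 0.63 (SE 0.10, adjusted p = 3.23e-05). The interaction for GPAT4 was 1.14 (SE 0.19, adjusted p = 7.34e-05). Its parental normoxia arrays read 7.04, 6.43 and 7.12, where 6.43 is replicate 2, the array with the highest index. With estradiol GPAT4 was lower in hypoxia in both kinds of cell. It averaged 6.95 in normoxic and 6.18 in hypoxic ESR2 cells, and 7.09 and 6.43 in parental cells.

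Of 13 genes of the droplet coat and of droplet formation, 2 rose and 2 fell with hypoxia in parental cells, and 0 rose and 2 fell in ESR2 cells. In parental cells AUP1, a droplet protein, fell by 0.82 (SE 0.11, adjusted p = 1.67e-06). BSCL2 (seipin), which shapes budding droplets, fell by 0.88 (SE 0.13, adjusted p = 8.1e-06), and its partner LDAF1 rose by 0.60 (SE 0.10, adjusted p = 2.92e-05). Replicate 2 of parental normoxia, the array with the highest index, read 9.41 for AUP1 and 6.74 for BSCL2. The other arrays of its group read 8.75 and 8.77 for AUP1 and 6.14 and 6.27 for BSCL2, so replicate 2 enlarged both falls. In hypoxic ESR2 cells BSCL2 was higher than in hypoxic parental cells by 0.83 (SE 0.13, adjusted p = 2.45e-05). Of 12 lipolysis genes, 2 rose and 2 fell in either kind of cell. PNPLA3, a relative of PNPLA2, rose by 0.61 in parental and by 0.75 in ESR2 cells (SE 0.10 each, adjusted p = 2.56e-05 and 3.64e-06). ABHD6, a monoacylglycerol lipase, fell by 0.95 in parental cells (adjusted p = 5.47e-05) and rose by 0.63 in ESR2 cells (adjusted p = 0.0053), with an interaction of 1.59 (SE 0.24, adjusted p = 1.57e-05). These ABHD6 values are without estradiol. With estradiol no lipolysis gene of this list, ABHD6 included, fell by more than 0.39 with hypoxia in parental cells or had an interaction above 1.04.

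Of 18 genes of fatty acid uptake, binding and activation, 2 rose and 5 fell with hypoxia in parental cells, and 2 rose and 3 fell in ESR2 cells. FABP5, a fatty acid carrier, fell by 0.49 and by 0.39 (SE 0.06 each, adjusted p = 3.76e-07 and 1.67e-05). ACSL4, which activates polyunsaturated fatty acids, fell in ESR2 cells by 0.62 (SE 0.10, adjusted p = 5.61e-05), with an interaction of -1.22 (SE 0.15, adjusted p = 9.14e-07). Of 16 genes of fatty acid oxidation and its PPAR control, 5 rose and 1 fell in parental cells, and 7 rose and 2 fell in ESR2 cells. CPT1A, the gate of mitochondrial fatty acid entry, rose by 1.12 in ESR2 cells (SE 0.07, adjusted p = 9.57e-12), with an interaction of 0.93 (SE 0.09, adjusted p = 5.99e-08). PPARG rose by 0.60 in parental cells (SE 0.09, adjusted p = 9.21e-06), and PPARA rose by 0.83 in ESR2 cells (SE 0.14, adjusted p = 4.05e-05).

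In hypoxic ESR2 cells estradiol called 24 of the 76 genes higher and 16 lower, 52.6% in either direction, beside 57% of all genes. GPAT4 fell by 1.52 (SE 0.14, adjusted p = 3.08e-09), LPIN2, a relative of LPIN1, by 0.65 (SE 0.08, adjusted p = 8.62e-07), and CPT1A by 0.52 (SE 0.07, adjusted p = 6.63e-07). BSCL2 rose by 0.72 (SE 0.13, adjusted p = 9.53e-05), and RXRA, the partner of the PPAR receptors, fell by 1.05 (SE 0.08, adjusted p = 2.43e-10). These values rest on the 3 arrays with a high 3′ minus 5′ index. In the covariate fit 11 of the 76 were called higher and 14 lower, beside 37.8% of all genes. GPAT4 then stood at -1.08 (adjusted p = 3.9e-05), LPIN2 at -0.57 (adjusted p = 0.00132), CPT1A at -0.54 (adjusted p = 0.000237) and RXRA at -1.12 (adjusted p = 2.59e-07), while BSCL2 was not called (0.42, adjusted p = 0.0959). Estradiol called 0 of the 76 by limma in normoxic parental, hypoxic parental and normoxic ESR2 cells, where 13, 2 and 2 had an unadjusted p under 0.05. In normoxia without estradiol 8 were higher and 8 lower in ESR2 than in parental cells, 21.1% beside 18.6% of all genes. GPAT2 had the smallest p among the synthesis genes there, with a difference of -1.57 between ESR2 and parental cells (SE 0.09, adjusted p = 4.52e-11).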

How the data were processed

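Total RNA was amplified, labelled with biotin and hybridised to Affymetrix 3′ arrays, per the labels' protocols. The authors deposited log2 signals; RMA and affy are named per the submitters' processing notes, with versions and array build unstated there. RMA subtracts background, quantile-normalizes arrays and sums up probe sets, and it compresses differences of dim genes.

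Of 49386 probe sets, 93 were controls, 45253 had 1 gene symbol in GEO's platform annotation, 1327 had several and 2713 had none; genes were named from those with 1. The brightest probe set on average stood for each of 18239 genes, unfiltered. With limma 3.58.1 in R 4.3.3, a model with a mean for each of 8 groups was fitted over 24 arrays (lmFit and eBayes, 16 residual degrees of freedom). The 16 comparisons were adjusted by Benjamini-Hochberg, each over all genes, at a threshold of 0.05. Errors are the SE of differences and the SD of group means. The fit was tested on simulated data. The number of arrays, 3 in a group, limits the precision.

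The 10 genes, the pathway and marker lists and the tests were chosen with earlier results of these data known. Other pathway genes were named as up to 3 per list and comparison with the smallest p, and like genes as the 5 with the highest r for HILPDA and PLIN2. METTL7A was matched as TMT1A, and 6 of the 82 listed genes had no value under their symbols. Upstream sequences and symbols came from RefSeq tables of GRCh38.p14. Alternatives were renewed quantile normalization, centring on medians, leaving out dim genes, the mean of probe sets, every probe set tested, array weights, a robust prior with a trend on intensity, only the groups compared, the replicate block, the 3′ minus 5′ index as a covariate, each array left out and, added after the data were seen, the 4 arrays with a high index left out and the index covariate for the pathway genes.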

Additional observations from a re-analysis of the deposited data

Results flagged for a closer look

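The response to hypoxia differed between ESR2 and parental cells for 6 of the 10 genes without estradiol, by the interaction term of the limma fit. HILPDA differed by -1.64, LPIN1 by -0.48, PLIN2 by 0.64, ABHD5 by 0.47, AGPAT2 by 0.45 and DGAT1 by 0.59. The DGAT1 call was lost in 14 of 23 alternative settings. With estradiol 7 genes differed: HILPDA by -1.25, LPIN1 by -0.61, PLIN2 by 1.25, ABHD5 by 0.62, AGPAT2 by 0.58, DGAT1 by 1.80 and DGAT2 by 0.59. The response to estradiol in ESR2 cells differed between hypoxia and normoxia for DGAT1 by 1.49, for PLIN2 by 0.57, for DGAT2 by 0.40 and for ABHD5 by 0.33. The DGAT2 call was lost in 7 of 22 alternative settings, with 0.12 in the covariate fit. The background shares of genes called in these 3 tests were 30.7%, 38.6% and 43.8%. HILPDA was lower in its hypoxia response in ESR2 cells and PLIN2 higher, in both the presence and the absence of estradiol.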

How the results depend on the processing

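Over 160 pairs of a gene and a comparison, 62 were called. Of these calls, 49 held in each alternative that could be run, among them all calls of HILPDA and PLIN2, and 13 were lost in at least 1. No alternative read a second probe set by itself. The second PLIN2 probe set gave 0.93 and 0.89 for hypoxia in ESR2 cells without and with estradiol. It gave -0.16 for estradiol in hypoxic ESR2 cells and -0.04 for the hypoxia by estradiol interaction in ESR2 cells. Between ESR2 and parental cells in normoxia without estradiol it gave -0.05. Of 98 uncalled pairs, 17 were called in at least 1 alternative, 3 of them with the direction reversed. In 4 pairs the direction reversed: averaging its probe sets, ABHD5 stood at 0.17 for ESR2 against parental cells in normoxia without estradiol and at 0.46 for hypoxia in ESR2 cells with estradiol, and with the 3′ minus 5′ index as a covariate PNPLA2 stood at -0.10 for ESR2 against parental cells in hypoxia with estradiol and at -0.34 for estradiol in hypoxic ESR2 cells. The cause was not tested. Of members called, array weights gave 4 in place of 2 for ESR2 against parental cells in normoxia without estradiol. A spread from only the groups compared gave 3 in place of 5 for hypoxia in parental cells without estradiol. For ESR2 against parental cells in normoxia with estradiol, leaving out each array in turn gave 1 to 2 in place of 3. With the index as a covariate, 25 of the 76 pathway genes in place of 40 were called for estradiol in hypoxic ESR2 cells. The comparisons with 0 members called (estradiol in 3 settings and its interaction with hypoxia in parental cells) had 0 in every alternative run. Replicate numbers were shared between groups, and deviations of arrays of 1 number were at most weakly related (r from -0.29 to 0.29 over the comparisons). For hypoxia in ESR2 cells without estradiol the r was 0.07 to 0.21. With the replicate block AGPAT2 lost its call for hypoxia in parental cells without estradiol (-0.19, adjusted p = 0.0535) and DGAT2 its call for ESR2 against parental cells in normoxia with estradiol (-0.31, adjusted p = 0.0541), and no call was gained. G0S2 was not tested where dim genes were left out, since it is among them. Hypoxic ESR2 cells with estradiol could not be compared without the arrays with a high index, as all 3 have one. Signals near or below the array median limit what can be said of PNPLA2 and G0S2.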
